A study of Homo sapiens with 4 samples.

Results

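The integrated stress response and its main effector, the transcription factor ATF4, were examined through 33 genes: kinases and phosphatase subunits that act on the translation factor eIF2alpha, transcription factors, amino acid enzymes and transporters, and the tRNA synthetases among known ATF4 targets. A gene was read from the probesets that the platform annotation gives to it and to no other gene. On this rule 31 of the 33 genes had probesets of their own and were tested, among 15719 genes in all. SLC3A2 was present only on 18 probesets annotated to it together with another gene, and ALDH1L2 was not analysed here.

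The cells were T-47D, an established luminal breast cancer line, grown in DMEM with 10% serum and transfected with TurboFect, a cationic polymer reagent. In one group the cells received the p-27-5p mimic, which stands for a designed microRNA not found in nature, at 200 nM (2 arrays), and in the other a pre-miR negative control RNA (2 arrays). A mimic is a short synthetic double-stranded RNA that loads into the silencing machinery as a microRNA would. The labels give no separate dose for the control, no hour of harvest and no allele or other agent in either group. They also do not state whether arrays of a group were separate cultures, so every p-value below measures the spread between arrays alone, which may be technical. Total RNA of whole cultures was hybridised to Affymetrix exon arrays, in which each probeset reads about 1 exon, and values are on the log2 scale. In such bulk RNA, fewer cells of a kind and less RNA per cell cannot be told apart.

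In this pathway, kinases that sense stress phosphorylate eIF2alpha, which lowers protein synthesis in general while upstream reading frames in the ATF4 mRNA let more ATF4 protein be made. PERK senses unfolded protein in the endoplasmic reticulum, GCN2 senses uncharged tRNA and PKR senses double-stranded RNA. ATF4 then raises genes for amino acid uptake, amino acid synthesis and tRNA charging, and with DDIT3 (CHOP) genes that restore translation or promote cell death. Because ATF4 is controlled largely in translation, its mRNA level is a poor guide to its protein.

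Many ATF4 targets carry a C/EBP-ATF response element, to which ATF4 binds as a dimer with a C/EBP protein. Promoter stretches of 300 bases, from 250 bases before to 50 bases after each annotated start site (RefSeq, GRCh38.p14), were available for 28 of the 33 genes. The element was searched on both strands as TGATGNAA, whose reverse is TTNCATCA. It was found in 11 of the 28 genes (39.3%), against 1217 of 27305 genes with a promoter entry (4.46%), and in 11 of 42 promoters of these genes (26.2%), against 3.62% of all promoters. The genes were AARS1, ASNS, ATF3, CARS1, CEBPG, CHAC1, GARS1, MARS1, NARS1, PPP1R15B and SLC3A2. Since the genes were listed as parts of this pathway, many of them as known ATF4 targets, this share describes the list and is no finding from the arrays. The stretches around 7 of these matches are shown because they lie before the start site and let the element be compared between a biosynthetic enzyme, transcription factors, a glutathione-degrading enzyme, a phosphatase subunit and synthetases. Capitals mark the match, and each is written 5′ to 3′ on the strand of the gene.
ASNS, chr7:97872443-97872502 (-), match at position -68: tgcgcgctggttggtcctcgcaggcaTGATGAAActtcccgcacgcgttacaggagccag
ATF3, chr1:212565190-212565249 (+), match at position -191: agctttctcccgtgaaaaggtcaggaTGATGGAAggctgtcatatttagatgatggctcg
CEBPG, chr19:33374045-33374104 (+), match at position -42: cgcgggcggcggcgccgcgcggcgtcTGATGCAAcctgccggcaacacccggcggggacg
CHAC1, chr15:40953236-40953295 (+), match at position -209: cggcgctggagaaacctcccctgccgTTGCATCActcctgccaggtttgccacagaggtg
PPP1R15B, chr1:204412011-204412067 (-), match at position -227: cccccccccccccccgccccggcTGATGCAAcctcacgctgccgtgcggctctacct
AARS1, chr16:70289660-70289719 (-), match at position -187: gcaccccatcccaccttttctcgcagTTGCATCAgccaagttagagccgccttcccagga
GARS1, chr7:30594819-30594878 (+), match at position -33: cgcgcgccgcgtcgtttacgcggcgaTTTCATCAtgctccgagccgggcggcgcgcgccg
Positions count the first letter of the match from the annotated start site, with negative values before it. A match is a run of letters and not a measured binding site.

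WARS1 was also searched for the interferon-stimulated response element, because this synthetase is known as an interferon-induced gene and interferon-stimulated genes rose strongly on these arrays. Of its 2 annotated promoters 1 held this element, through which many genes of the interferon response are switched on. No other of the 28 genes held it (3.57%, against 4.38% of all genes with a promoter entry). Capitals mark the match, which begins at position -55.
WARS1, chr14:100375367-100375428 (-): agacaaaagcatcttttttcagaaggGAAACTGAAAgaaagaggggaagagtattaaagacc

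The luminal label was checked on 16 marker genes, whose levels ran from 6.54 to 12.1 in mimic arrays and from 6.43 to 12.4 in control arrays. Their median was 9.88 in mimic and 9.82 in control arrays, against 4.92 and 4.80 for 13 genes of liver and neurons taken as background. Of the 16, limma called 1: TFF3 fell by 0.99 (adjusted p = 0.0417), where 0.789% of all genes were called lower. The next smallest p-values belonged to PGR (-0.60), ESR1 (-0.42) and KRT19 (-0.48). In 8 genes both mimic arrays lay under both control arrays (50%, against 29.5% of all genes). The markers did not move as one, with 11 below 0, 5 above 0 and a median change of -0.11. The 8 leukocyte genes had a median level of 5.70 in mimic and 5.66 in control arrays, with the highest, CD3E, at 6.96 and 7.38, so some stood above the background median. Limma called 0 of these 8 and 0 of 12 fibroblast and endothelial genes (2.31% of all genes were called). Higher at an unadjusted p under 0.05 were 1 and 3. Those shares were 12.5% and 25%, against 7.65% of all genes and 23.1% of the background genes. The smallest p-values belonged to CD14 (0.46), ITGAM, PTPRC and NKG7, and to FAP (0.77), LUM (0.80), CDH5 and COL3A1. All 12 fibroblast and endothelial genes had values above 0, with a median of 0.25, close to the 0.24 of the background genes, of which 11 of 13 were above 0. Array values correlated with r = 0.985 between mimic arrays, 0.984 between control arrays and 0.966 to 0.973 across groups.

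Of the 31 genes tested, 1 rose and 1 fell in mimic arrays (limma, Benjamini-Hochberg adjusted p under 0.05), and 29 did not pass. CEBPB, a transcription factor that pairs with ATF4 and CHOP, rose 1.94-fold, and PHGDH, the first enzyme of serine synthesis, fell 1.73-fold. Over all genes 2.31% were called, 1.52% higher and 0.789% lower, so these single calls say little about the list as a whole. At an unadjusted p under 0.05, 6 of the 31 genes were higher (19.4%, against 7.65% of all genes) and 4 lower (12.9%, against 12.8%), where 20.4% of all genes passed in either direction. Both mimic arrays lay above both control arrays in 15 genes (48.4%, against 20.5% of all genes) and below both in 9 (29.0%, against 29.5%), while 7 overlapped. Of the 31 genes 19 were above 0 (61.3%, against 50.3% of all genes). The median change was 0.16, against 0.00 over all genes, and the median size of change without its sign was 0.31, against 0.20. The values by array show genes of the list on both sides of no change, and a shift of the list as a whole was not tested.

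**Figure D1:**
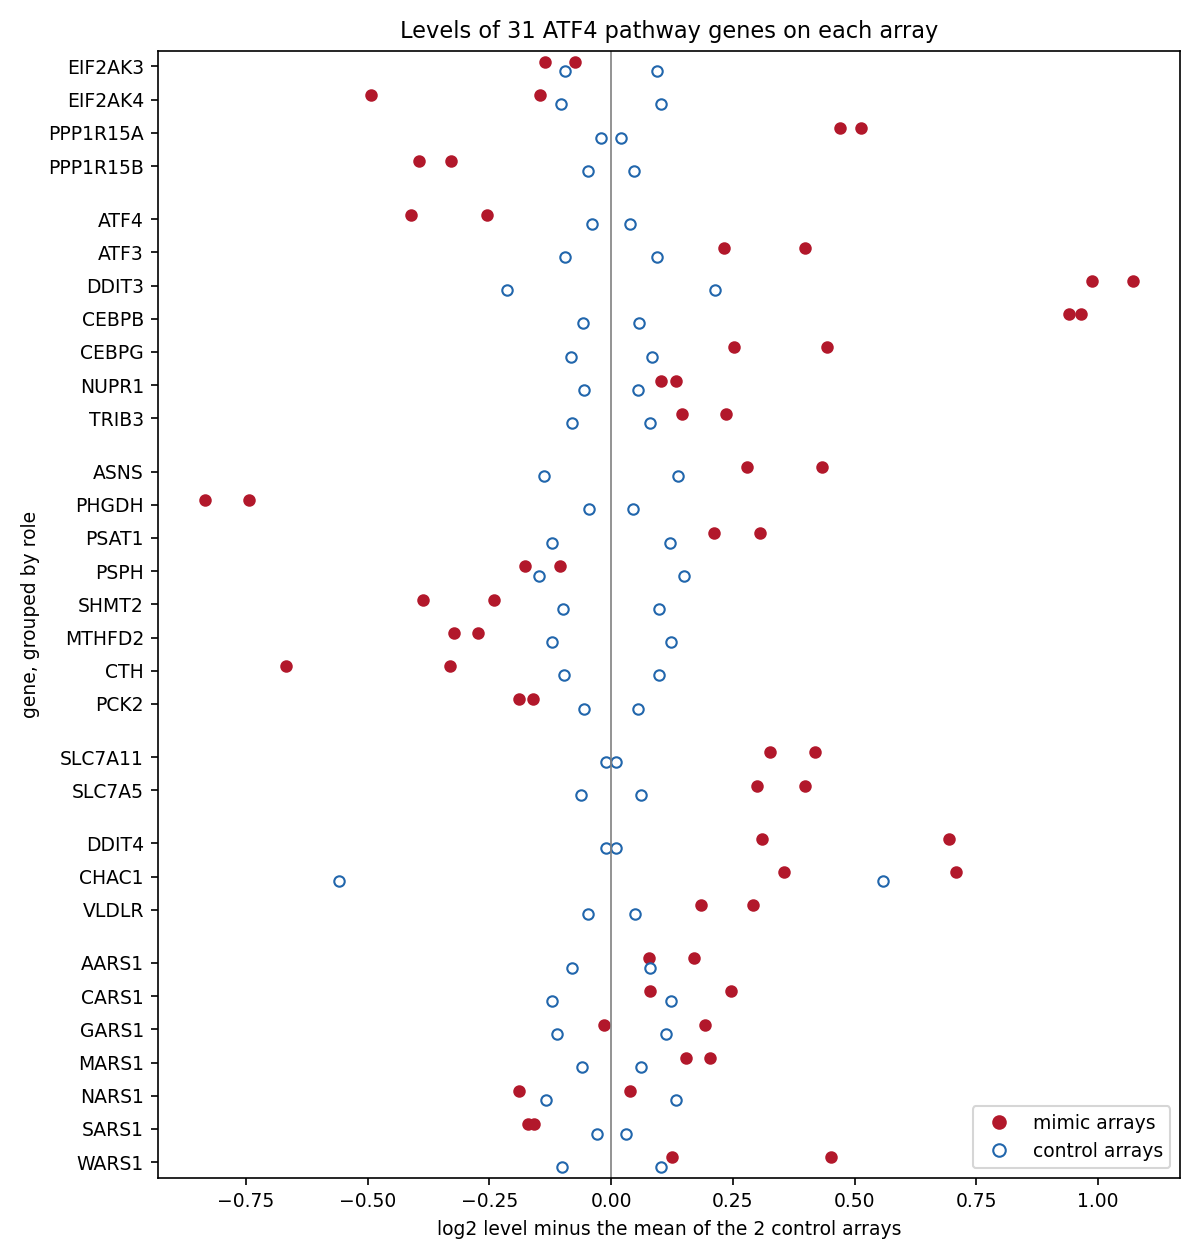
Log2 level of each of the 31 tested genes on every array, shown as the difference from the gene's mean over both control arrays, with genes grouped by role. Filled points are mimic arrays and open points control arrays; CEBPB and DDIT3 lie farthest above the controls and PHGDH farthest below, while the CHAC1 control arrays stand far apart from each other.

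**Figure D2:**
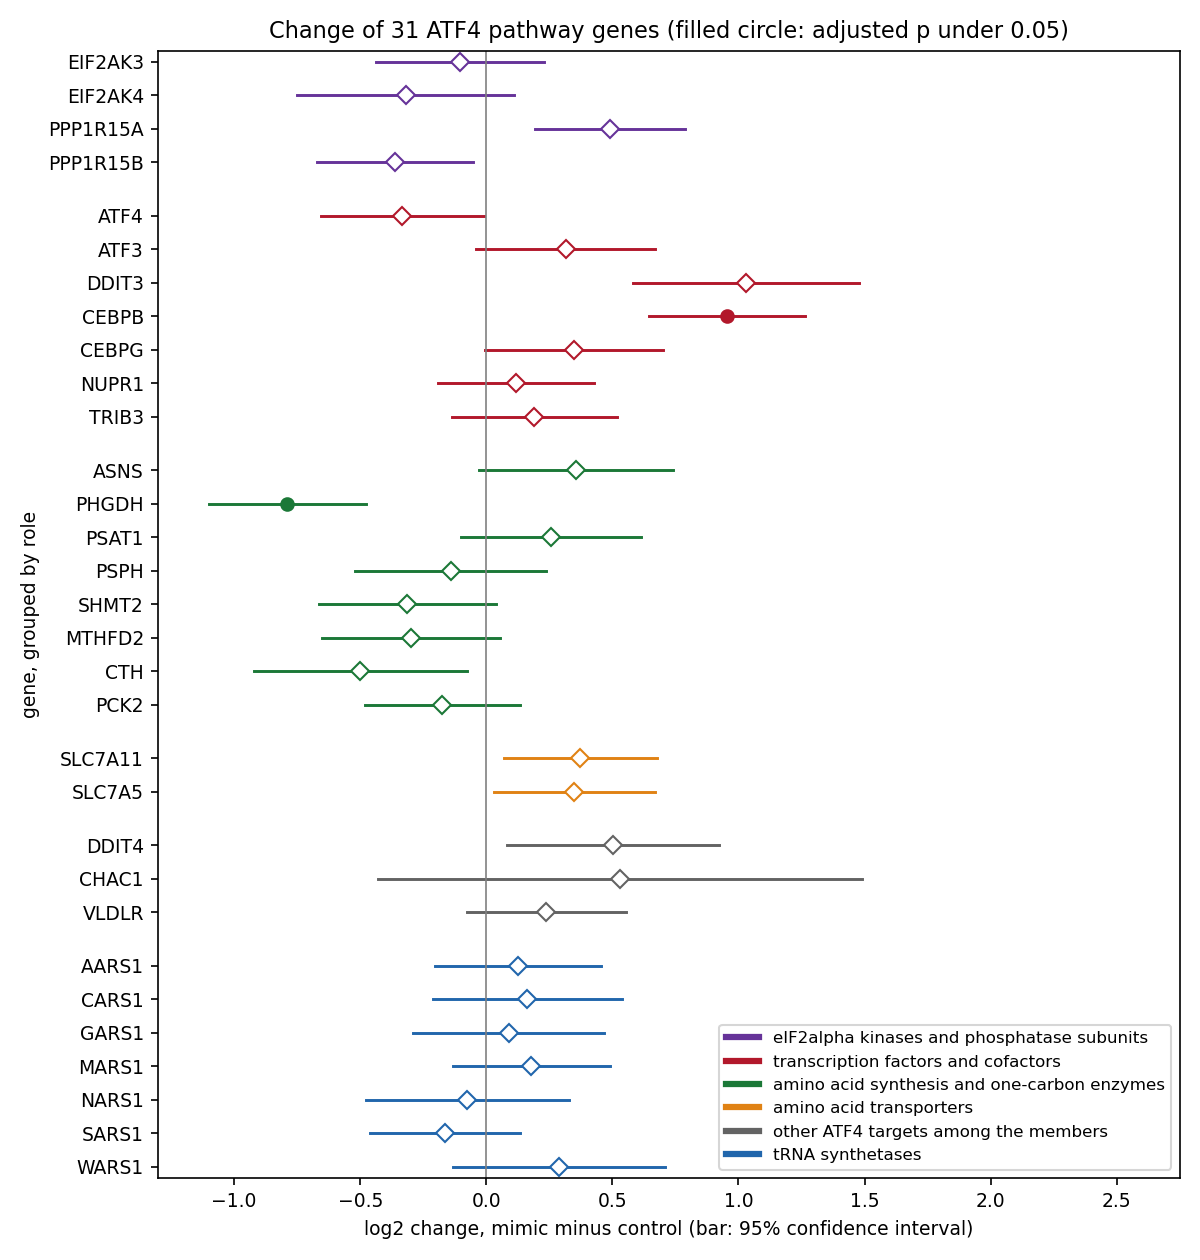
Mimic minus control change of each tested gene with its 95% confidence interval from limma, grouped and coloured by role (n = 2 arrays a group). CEBPB and PHGDH, the filled circles, passed the adjusted threshold; the interval of DDIT3 starts at 0.58 and that of CEBPB at 0.64, and the adjusted p of DDIT3 was 0.0604.

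Upstream, the 4 kinase and phosphatase genes gave no call in either direction, where 2.31% of all genes were called. EIF2AK3, which encodes PERK, stood at 7.19 and 7.25 in mimic arrays and 7.23 and 7.42 in control arrays, a difference of -0.10 (SE 0.13, adjusted p = 0.699 by limma). EIF2AK4, which encodes GCN2, stood at 7.26 and 7.61, against 7.65 and 7.85 in control arrays, a difference of -0.32. The groups overlapped for PERK, and for GCN2 both mimic arrays lay below the control arrays by a narrow margin, with all 13 probesets below 0. PPP1R15A (GADD34), the stress-induced subunit that brings a phosphatase to eIF2alpha, stood at 6.66 and 6.71 in mimic arrays, against 6.17 and 6.21 in control arrays. Its constitutive relative PPP1R15B (CReP) stood at 9.19 and 9.13, against 9.47 and 9.57. For both genes the groups were separate, in opposite directions: 0.49 (95% interval 0.19 to 0.79, adjusted p = 0.109) for PPP1R15A and -0.36 (-0.67 to -0.05, adjusted p = 0.190) for PPP1R15B. Neither passed the threshold across all genes, and PPP1R15A did without the filter on dim probesets (adjusted p = 0.0346). The probesets of PPP1R15B disagreed, with 9 of 11 below 0 and the brightest at 0.17.

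A further eIF2alpha kinase, outside the 31 genes, rose. EIF2AK2, which encodes the double-stranded RNA sensor PKR, stood at 9.65 and 9.79 in mimic arrays, against 7.62 and 7.86 in control arrays. It rose by 1.98 (SE 0.145, 3.95-fold, adjusted p = 0.00383), and limma called it under all 13 alternatives. PKR is itself an interferon-stimulated gene. The other measured genes of eIF2, its exchange factor (which reloads eIF2 with GTP) and related factors gave no call, against 2.31% of all genes. Of the 16 genes tested in this list, 13 were below 0 (49.7% of all genes were). In 11 the mimic arrays stood below both control arrays (68.8%, against 29.5% of all genes). The list median was -0.25. After EIF2AK2, the smallest p-values belonged to genes that encode no subunit of eIF2 or of its exchange factor. EIF2AK1, the heme-regulated kinase HRI, had -0.51 (adjusted p = 0.111 by limma). DELE1, which relays mitochondrial stress to HRI, had -0.67 (adjusted p = 0.0732), and EIF2D had -0.64 (adjusted p = 0.0699).

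Transcription factors of the pathway included CEBPB and DDIT3, the largest differences above 0 among the 31 genes. In 6 of 7 genes both mimic arrays lay above both control arrays (85.7%, against 20.5% of all genes), and in ATF4 itself below. Of the 7 genes 1, CEBPB, rose, where 1.52% of all genes did. ATF4 stood at 7.86 and 8.01 in mimic arrays, against 8.31 and 8.23 in control arrays. The difference was -0.33 (95% interval -0.66 to -0.01, adjusted p = 0.235), and its 4 probesets were all below 0. CEBPB stood at 8.37 and 8.34 in mimic arrays, against 7.34 and 7.46 in control arrays. As means over 8 probesets, its mimic values nearly coincided, and the gap between groups was far wider than either spread. Values were 8.35 ± 0.018 in mimic and 7.40 ± 0.082 in control arrays (SD, n = 2 each). In single kept probesets the SD of the mimic arrays was larger, from 0.035 to 0.39, with differences in both directions. CEBPB rose by 0.95 (95% interval 0.64 to 1.26, adjusted p = 0.028 by limma), with mimic above control in all 8 probesets kept, by 0.41 to 1.53. The call held under 9 of the 13 alternatives and was lost with either mimic array left out (adjusted p = 0.166 and 0.140) and with the median (0.119) or brightest probeset (0.203) as the value of a gene.

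DDIT3 encodes CHOP, the ATF4 target that pairs with ATF4 and C/EBP factors and favours cell death under lasting stress. It stood at 8.65 and 8.74 in mimic arrays, against 7.45 and 7.88 in control arrays. The groups were well apart, and the control arrays differed more from each other than the mimic arrays did. The difference was 1.03 (95% interval 0.58 to 1.48, 2.04-fold) with an adjusted p of 0.0604, so the gene did not pass. In all 6 probesets the mimic arrays were above the control arrays, by 0.63 to 1.43. DDIT3 passed under 5 of the 13 alternatives. These were quantile normalization (adjusted p = 0.0341 by limma), no filter (0.00372), an intensity trend (0.00499) and the fits with control replicate 1 or 2 left out. With a lone control array, the wide spread between the control arrays does not enter the fit, so those passes add little. Without mimic replicate 1 or 2 the gene did not pass.

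The other transcription factors had smaller values. ATF3, a stress-induced partner of CHOP, stood at 6.04 and 5.88 in mimic arrays, against 5.74 and 5.55 in control arrays (0.31, adjusted p = 0.290). CEBPG, which forms dimers with ATF4, stood at 8.53 and 8.72, against 8.20 and 8.36 (0.35, adjusted p = 0.252), and its 6 probesets were all above 0. The pseudokinase TRIB3, induced by ATF4 and CHOP, stood at 7.97 and 8.06, against 7.74 and 7.90, and the chromatin cofactor NUPR1 at 10.08 and 10.05, against 10.00 and 9.89. In each of these 4 genes the groups were separate, but the differences lay between 0.12 and 0.35 and none passed the test. The 8 probesets of ATF3 disagreed, with 6 above and 2 below 0. Those of TRIB3 (7 above and 4 below) and NUPR1 (3 above and 1 below) did too. In 0 of 4 NUPR1 probesets did both mimic arrays lie above both control arrays. With the median of probesets TRIB3 had -0.13 and NUPR1 -0.01.

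**Figure D3:**
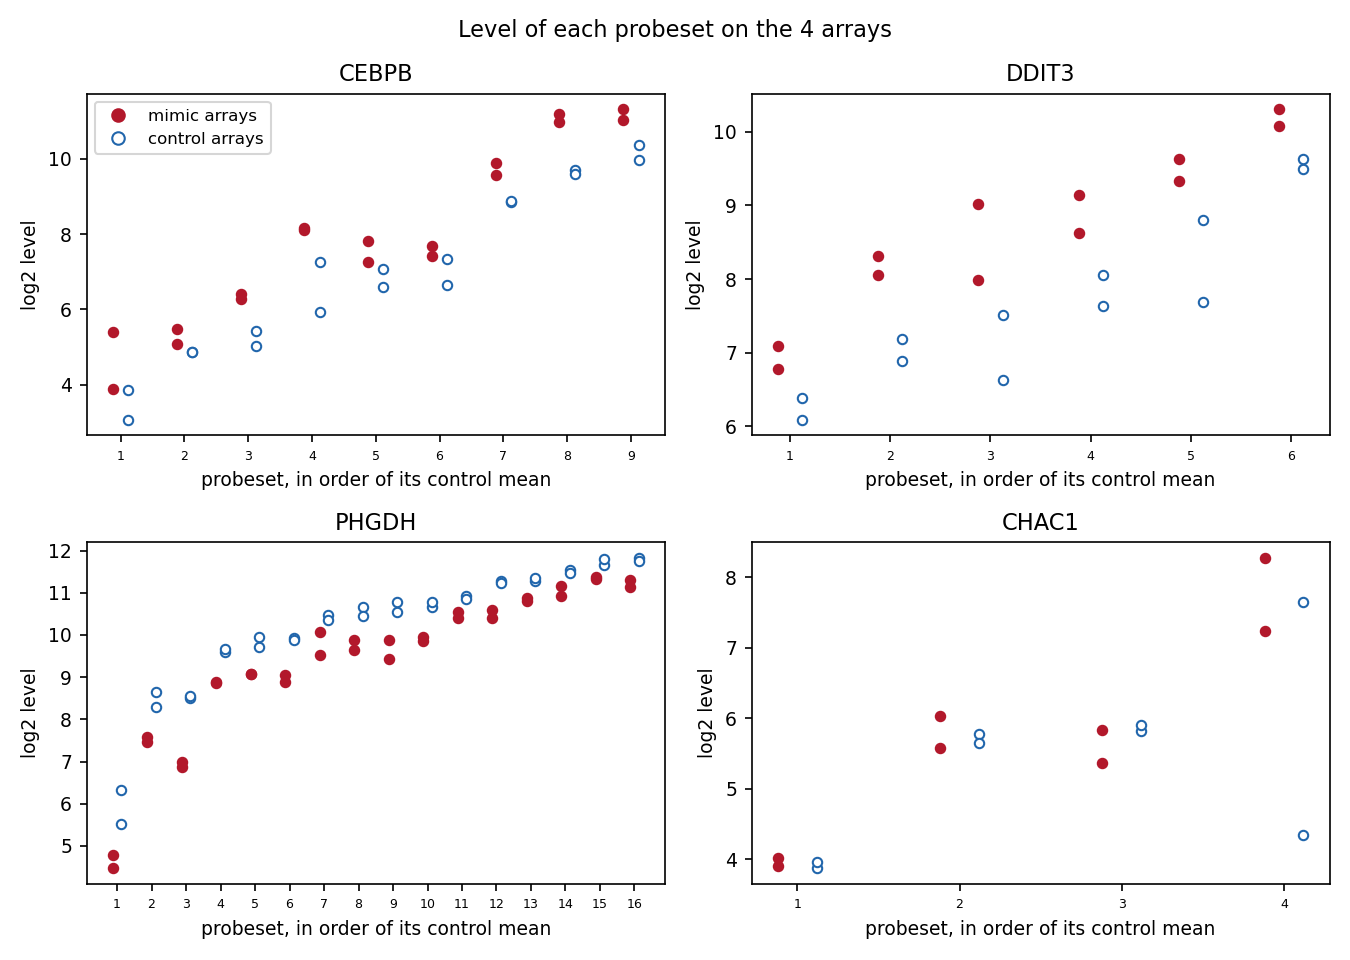
Log2 level of every probeset of CEBPB, DDIT3, PHGDH and CHAC1 on the 4 arrays, in order of the control mean; filled points are mimic arrays and open points control arrays. Mimic lies above control throughout DDIT3 and in the 8 kept probesets of CEBPB (the dimmest fell below the filter), and below control in all 16 of PHGDH, while the brightest CHAC1 probeset has one control array near the mimic arrays and the other far lower.

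Amino acid and one-carbon enzymes lay mostly below 0. Of 8 genes tested, 1 fell (0.789% of all genes did) and 0 rose. In 6 of the 8 the value was below 0 (75%, against 49.7% of all genes), and the median was -0.24. PHGDH, which commits a glycolytic intermediate to serine, stood at 9.45 and 9.36 in mimic arrays, against 10.15 and 10.24 in control arrays (9.41 ± 0.065 in mimic and 10.20 ± 0.064 in control arrays, SD, n = 2 each). The groups were far apart relative to their spread, and all 16 probesets had both mimic arrays below both control arrays, by -1.60 to -0.38. PHGDH fell by 0.79 on the log2 scale (95% interval -1.10 to -0.48, adjusted p = 0.049 by limma). That call lies at the threshold and held under 6 of the 13 alternatives. It was lost with the replicate number as a block (adjusted p = 0.0522), equal array medians (0.0547), robust hyperparameters (0.0507), the median of probesets (0.104) and without mimic replicate 1 or 2 (0.221 or 0.241). The brightest probeset, as the value of the gene, gave -0.38 (adjusted p = 0.340).

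The enzymes after PHGDH did not pass the test. PSAT1, the aminotransferase of the following step, stood at 9.65 and 9.74 in mimic arrays, against 9.31 and 9.56 in control arrays (0.26, adjusted p = 0.379), but rested on 2 probesets with opposite signs. PSPH, the phosphatase of the last step, stood at 8.46 and 8.54, against 8.49 and 8.79, with overlapping groups. Serine synthesis genes thus gave 1 call, on the first step, and differences of 0.26 and -0.14 on the others. SHMT2, which passes a serine carbon to mitochondrial folate, stood at 10.08 and 10.23 in mimic arrays, against 10.37 and 10.57 in control arrays, and MTHFD2, which acts after it, at 9.67 and 9.62, against 9.82 and 10.06. Both had separate groups, with differences of -0.31 and -0.30 and adjusted p of 0.288 and 0.312. All 16 SHMT2 probesets were below 0, 11 of them with no overlap, whereas MTHFD2 had 3 of 4 below 0 and its brightest at 0.29.

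ASNS, which makes asparagine and is a classic ATF4 target, stood at 8.68 and 8.53 in mimic arrays, against 8.39 and 8.11 in control arrays. CTH, which makes cysteine from cystathionine, stood at 4.91 and 4.57, against 5.14 and 5.34. The mitochondrial PCK2 stood at 6.76 and 6.79, against 6.89 and 7.00. All 3 genes had separate groups, ASNS with 0.36 (adjusted p = 0.273), CTH with -0.50 (adjusted p = 0.187) and PCK2 with -0.17 (adjusted p = 0.485). CTH, ATF3 and VLDLR had control means no higher than 5.79, the second highest control level of the background genes. At that level signal is close to background, and the background genes themselves had a median difference of 0.24. The highest background gene, SYT1, stood at 6.85 in control arrays. CHAC1 (5.86), PPP1R15A (6.19), SLC7A11 (6.31) and DDIT4 (6.36) had control means between 5.79 and 6.85.

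The amino acid transporters both had positive values. SLC7A11, the cystine importer xCT, stood at 6.73 and 6.64 in mimic arrays, against 6.30 and 6.32 in control arrays. SLC7A5, the carrier LAT1 for leucine and other large amino acids, stood at 11.02 and 11.12, against 10.65 and 10.78. The groups were separate in both genes and the intervals lay above 0 (0.37, 0.07 to 0.68, and 0.35, 0.03 to 0.67), but the adjusted p was 0.176 and 0.213, so neither passed. Of 31 probesets kept for this pair, 23 had both mimic arrays above both control arrays (74.2%, against 21.0% of all probesets). SLC3A2, the heavy chain that both carriers need, cannot be told apart from the gene it shares its probesets with, and no value is given.

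Among the remaining targets, CHAC1, which degrades glutathione, depended on a single array. It stood at 6.57 and 6.21 in mimic arrays, against 6.42 and 5.30 in control arrays. The control values lay far apart (SD 0.791) and the difference was 0.53 (95% interval -0.43 to 1.49, adjusted p = 0.494). Without control replicate 1 it was 1.09, and without control replicate 2 it was -0.03. The spread was widest in its brightest probeset, at 8.28 and 7.23 in mimic arrays, against 7.65 and 4.34 in control arrays. DDIT4 (REDD1), which restrains mTORC1, stood at 6.67 and 7.05 in mimic arrays, against 6.35 and 6.37 in control arrays, a separate pair of groups with 0.50 (adjusted p = 0.184). The lipoprotein receptor VLDLR stood at 4.92 and 5.02, against 4.78 and 4.68, near background, with 0.24 (adjusted p = 0.359).

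None of the 7 tRNA synthetases among the ATF4 targets passed the test (0 also at an unadjusted p under 0.05, where 20.4% of all genes passed). These enzymes join each amino acid to its tRNA. Their differences ran from -0.16 to 0.29 with a median of 0.12. Both mimic arrays lay above both control arrays in 2 (28.6%, against 20.5% of all genes) and below both in 1 (14.3%, against 29.5%), while 4 overlapped. WARS1, for tryptophan, stood at 9.30 and 9.62 in mimic arrays, against 9.07 and 9.27 in control arrays. Its groups were separate by a narrow margin, with a difference of 0.29 (95% interval -0.13 to 0.71, adjusted p = 0.401). The 14 interferon-stimulated genes tested rose, by 1.84 to 7.66. They were chosen with earlier results of these data known, so their smallest value sets no lower limit for interferon-induced genes. Whether WARS1 responded to interferon was not tested. Of its 20 probesets 17 were above 0, from -0.24 to 0.76, and the brightest had 0.05.

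AARS1, for alanine, stood at 10.96 and 11.05 in mimic arrays, against 10.80 and 10.96 in control arrays, and MARS1, for methionine, at 10.51 and 10.56, against 10.30 and 10.42. These small differences, 0.12 and 0.18, ran through nearly every probeset, with 22 of 22 above 0 in AARS1 and 27 of 30 in MARS1. The MARS1 gene meets the end of DDIT3 on the opposite strand, and how far the probesets near that end read both was not tested. CARS1, for cysteine, stood at 7.46 and 7.62, against 7.25 and 7.50, and GARS1, for glycine, at 9.20 and 8.99, against 9.12 and 8.90, with 2 probesets kept. SARS1, for serine, stood at 10.11 and 10.10, against 10.30 and 10.24, and NARS1, for asparagine, at 10.01 and 10.24, against 10.07 and 10.33. The groups were separate in SARS1, with -0.16 (adjusted p = 0.498), and in MARS1. They overlapped in CARS1, GARS1, NARS1 and, by the narrowest margin, AARS1.

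**Figure D4:**
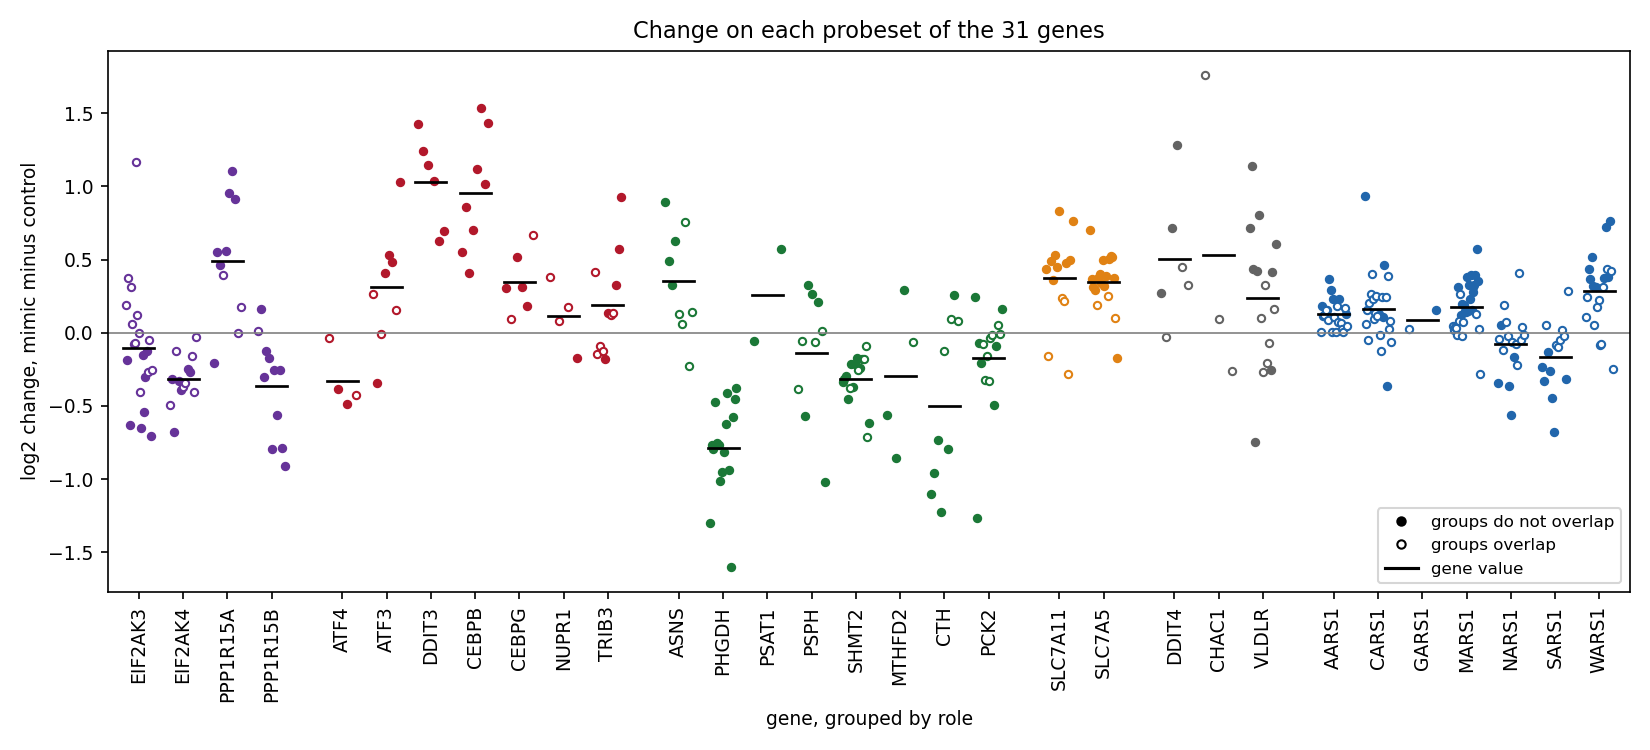
Mimic minus control change of each kept probeset of the 31 genes, on the log2 scale, grouped by gene and role; filled points are probesets whose groups do not overlap, open points those whose groups do, and black bars the gene values. The probesets of CEBPB and DDIT3 all lie above 0 and those of PHGDH, SHMT2, ATF4 and EIF2AK4 all below it.

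Synthetases outside the ATF4 list were also without calls, where 2.31% of all genes were called. The other cytosolic synthetases had 14 genes tested, 0 called (0 higher and 2 lower at an unadjusted p under 0.05) and a median of -0.11, where 12.8% of all genes were lower unadjusted, with LARS1 at -0.34 (adjusted p = 0.205), VARS1 at -0.33, IARS1 at -0.33 and FARSB at -0.20. The mitochondrial synthetases had 15 genes tested, 0 called (0 higher and 4 lower unadjusted, 26.7%, against 12.8% of all genes), 13 below 0 and a median of -0.20. In 10 of the 15 the mimic arrays stood below both control arrays (66.7%, against 29.5%), with MARS2 at -0.40 (adjusted p = 0.150), CARS2 at -0.52, FARS2 at -0.42 and RARS2 at -0.30. The ATF4-linked synthetases, at a median of 0.12, thus lay on the other side of 0 from both lists, a difference that was not tested.

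Of 27 other known ATF4 targets, limma called 0, where 2.31% of all genes were called. At an unadjusted p under 0.05, 7 were higher (25.9%, against 7.65% of all genes) and 1 lower (3.70%, against 12.8%). The list median was 0.11. Of the 13 background genes 23.1% were higher unadjusted, with a median of 0.24. Control means of the 7 higher targets ran from 5.31 to 10.2, and some lay under 5.79, close to background. The glycine transporter SLC6A9 had 0.73 (adjusted p = 0.0536, 0.0490 with the replicate block), the transcription factor CEBPD 0.69 (adjusted p = 0.080), the growth factor VEGFA 0.47 (adjusted p = 0.126) and the translation inhibitor EIF4EBP1 -0.40 (adjusted p = 0.154). The ATF6 and XBP1 arms of the unfolded protein response, which act beside PERK, gave 0 calls among 22 genes and a median of 0.04. Unadjusted, 2 were higher (9.09%, against 7.65% of all genes) and 2 lower (9.09%, against 12.8%). HSPA5, the chaperone BiP, had 0.55 (adjusted p = 0.128), the disulfide isomerase PDIA4 0.61 (adjusted p = 0.0877), EDEM1, which helps clear misfolded glycoproteins, -0.82 (adjusted p = 0.0609) and ATF6B -0.32. No gene of either list passed, which says little for lists of this size, with 2.31% of all genes called. Values of both signs stood among the smallest p-values of each.

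**Figure D5:**
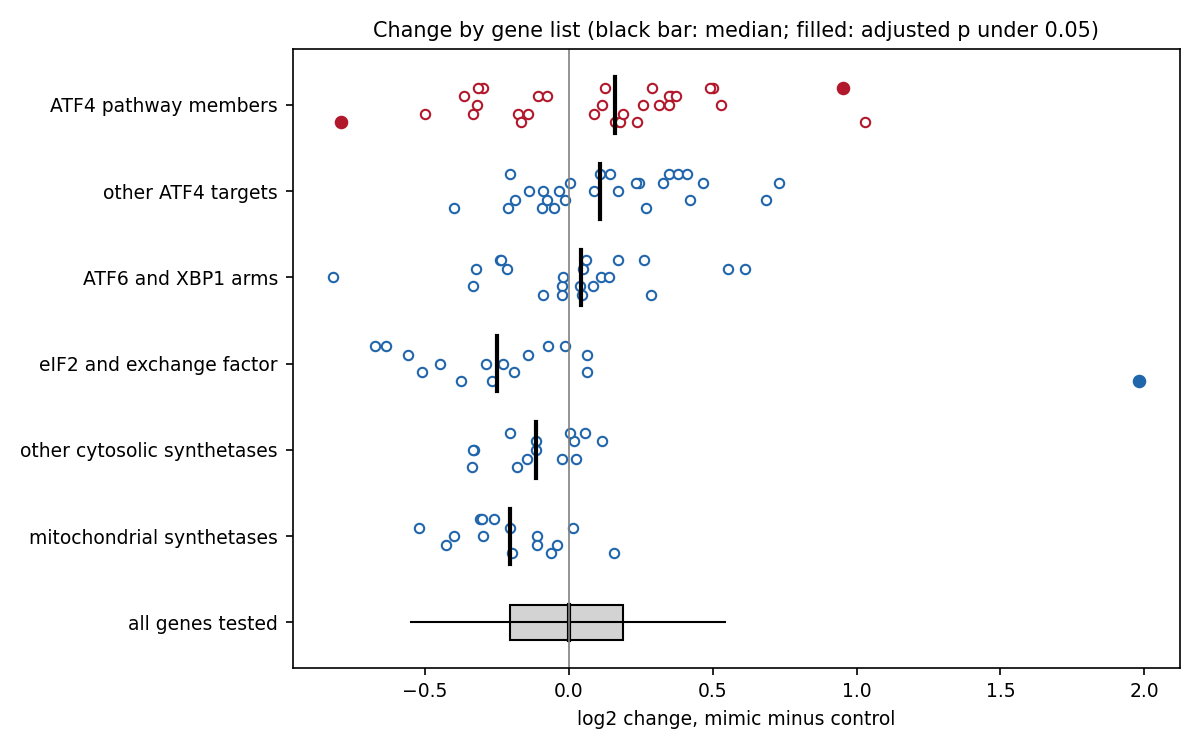
Mimic minus control change of every tested gene in each list, on the log2 scale, with a black bar at the list median and filled points for genes past the adjusted threshold. The bottom row gives all genes tested as a box from the 25th to the 75th percentile (-0.20 to 0.19) with lines to the 5th and 95th (-0.55 and 0.54); the integrated stress response genes stand at a median of 0.16 and spread to both sides of 0, and EIF2AK2 lies alone at 1.98.

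Other genes moved on the same arrays. Interferon-stimulated genes rose in 14 of 14 tested, with a median of 5.19: OAS1, OAS2, IFIT1, IFIT2, IFIT3, DDX60, MX1, IFIH1, IFI44, RIGI, ISG15, IRF1, IRF7 and EIF2AK2. The part that these genes or the luminal genes play in the values of CEBPB, DDIT3 and PHGDH was not tested.

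At the level of single probesets, 366 of 388 passed the filter on dim values. Limma called 0 higher (0.795% of all probesets were called higher) and 1 lower, in PHGDH (0.0881% of all were called lower), at -1.60 with an adjusted p of 0.0375. At an unadjusted p under 0.05, 38 were higher (10.4%, against 6.35% of all probesets) and 26 lower (7.10%, against 8.81%). Both mimic arrays lay above both control arrays in 119 of the 366 (32.5%, against 21.0% of all probesets) and below both in 86 (23.5%, against 26.8%). By role, the transcription factors had 26 of 47 with mimic above (55.3%) and 5 below (10.6%). CEBPB gave 8 and DDIT3 6 of those above. The enzymes had 12 of 80 above (15%) and 42 below (52.5%), of which PHGDH gave 16 and SHMT2 11. The synthetases had 41 of 129 above (31.8%) and 12 below (9.30%). Probesets of a gene share its transcripts and are not independent of each other.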

How the data were processed

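The deposited table holds log2 values of 232479 exon-level probesets on 4 arrays. Partek, RMA and hg18 are named per the submitters' processing notes, without versions or order. RMA usually corrects background, normalizes quantiles and summarises probes, yet the interquartile ranges of the deposited log2 values differed between arrays (4.18 and 4.32 for mimic, 4.25 and 4.52 for control). Platform symbols were updated through RefSeq names: 190058 of 216780 probesets with 1 symbol were current, 25816 were updated through a synonym and 906 kept as listed. Probesets with several symbols (2335) or none (13364) named no gene.

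A gene's value was the mean of its probesets whose mean over all arrays reached the 25th percentile of all values (4.08). The test of mimic against control was limma's moderated fit (version 3.58.1, R 4.3.3), two-sided, and Benjamini-Hochberg adjustment ran over 15719 genes or 174802 probesets. The fit had 2 residual degrees of freedom, 5.29 with the prior. Scripts were tested on simulated data. Other software was pandas 2.3.3 and matplotlib 3.10.9 in Python 3.11.15.

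The series' design text speaks of mimic and control pairs without saying what a pair shares. Deviations of same-numbered arrays from their group means correlated with r = 0.435 over genes and 0.303 over probesets. The replicate number entered as a block in an alternative fit. Other alternatives were no filter or one at the 50th percentile, equal array medians, quantile normalization, the median or brightest probeset, an intensity trend, robust hyperparameters and leaving out each array. Members, lists and alternatives were chosen with earlier results of these data known. All members were named, and of each other list the genes past the threshold and the 4 with the smallest p; those of the background list were GRIN2B, APOA2, FGA and SYT1. CD3E was named after its values were seen. The result of 1 further promoter motif is not reported here. The mimic's sequence and target sites were not analysed here.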

Additional observations from a re-analysis of the deposited data

How the results depend on the processing

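In the reported fit, 239 genes were called higher and 124 lower, 1 and 1 of them among the stress response genes, with 0 member probesets higher and 1 lower. The replicate block gave 195 genes lower, 0 members lower and 0 member probesets lower, and it changed no other call among the members. Quantile normalization gave 222 genes lower and 2 members higher, and equal array medians gave 0 members lower. Without the filter on dim probesets 540 genes were higher, 893 lower and 3 members higher, while a filter at the 50th percentile gave 1 member probeset higher. With the median of probesets 55 genes were lower and 0 members were called in either direction. With the brightest probeset 115 genes were higher, 7 lower and 0 members called in either direction. An intensity trend gave 527 genes higher, 1067 lower, 2 members higher, and 7 member probesets higher and 9 lower. Robust hyperparameters gave 0 members lower. Leaving out 1 array in turn gave 160 to 983 genes higher, 12 to 708 lower, 0 to 3 members higher, 0 to 1 lower, and 0 to 0 member probesets lower; the fits without a mimic array called 0 members. The lone array left in a group is assumed to vary like the other group. Over the 13 alternatives, 368 of the member results kept direction and side of the threshold, 11 lost the call, 7 gained one and 16, none of them called, turned sign; the cause was not tested. With the brightest probeset, PSAT1 had -0.0564, PSPH 0.33, VLDLR -0.0696, MTHFD2 0.29, PCK2 0.0504 and PPP1R15B 0.17, and outside the members SYT1 had 0.0112, ESR1 0.0259, VARS1 0.0871, IARS1 0.0319 and FARSB 0.12. With the median of probesets, TRIB3 had -0.13, PSPH 0.0204 and NUPR1 -0.0118, and with the filter at the 50th percentile ATF3 had -0.0937. With 1 array left out in turn, GARS1 ran from -0.0231 to 0.20, NARS1 ran from -0.21 to 0.058, CHAC1 ran from -0.0286 to 1.09, PSPH ran from -0.29 to 0.00734 and NKG7 from -0.066 to 0.53. VLDLR had no probeset past the 50th percentile and gave no value there. The member median stayed between 0.12 and 0.20. The median of all genes was 0.02 with equal array medians and 0.00 with quantile normalization. With 2 arrays a group, no detection calls and members near background (CTH, ATF3, VLDLR), small differences could not be resolved.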

Other observations

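Values of the stress response genes can be set out by whether a promoter holds the C/EBP-ATF response element. The 10 tested genes with TGATGNAA in a promoter had a median of 0.17, with 8 above 0, and the 17 without it had a median of 0.19, with 9 above 0. Over all genes the 431 with the element had a median of 0.07 and 1.39% were called higher, against -0.01 and 1.41% of the 12159 without it. The interferon-stimulated response element gave another picture over all genes: 13.1% of the 497 genes with it in a promoter were called higher, against 0.934% of the 12093 without it. WARS1, the single stress response gene that held it, had 0.29 and was not called. These are descriptions of short promoter stretches, and no test was made of them.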
